A study of Homo sapiens with 3 samples.

Results

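The RNAs described here are intergenic and antisense long noncoding RNAs of the human bladder cancer line UM-UC-3, measured on 1 array each after DANCR siRNA1, DANCR siRNA2 or control siRNA. They were chosen by name and by intensity: genes called LINC plus digits, genes whose symbol ends in -AS1 or -DT, and microRNA host genes called MIR plus digits plus HG, kept where the brightest probe set exceeded an intensity of 30 in at least 1 of the 3 arrays. This left 147 of the 1763 genes of these names on the array, and the same intensity threshold left 9143 of all 19775 genes. The 147 comprised 44 LINC genes of 839 on the array, 76 -AS1 genes of 706, 25 -DT genes of 197 and 2 microRNA host genes of 21.

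Long intergenic noncoding RNAs are transcribed from between protein-coding genes and are often present at low levels. An -AS1 gene lies on the strand opposite to the gene whose name it carries, and a -DT gene is transcribed away from that gene's promoter. Some such RNAs act on nearby chromatin or on their neighbour gene, some bind proteins or microRNAs, and a MIR-HG transcript carries microRNA hairpins in its introns or exons.

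All cells received 75 nM siRNA by lipid transfection and were taken after 48 h. DANCR is itself a long noncoding RNA, and its name falls outside the naming rule. The study used 1 cell line and 1 array per group, so no difference has a replicate check, no test was run, and every value below describes these 3 arrays. The siRNAs are shown because the sequence is what separates the groups, with the 2-base overhang in capitals.
DANCR siRNA1: gcguacuaacuuguagcaaTT
DANCR siRNA2: gagcuagagcagugacaauTT
control siRNA: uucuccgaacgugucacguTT

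DANCR had an intensity of 116 with siRNA1 and 126 with siRNA2, against 671 with control siRNA. The mean intensity of the array was 96.3 with siRNA1 and 96.5 with siRNA2, against 95.3 with control siRNA. The 3'/5' ratio of ACTB, a sign of RNA length, was 11.8 with siRNA1 and 14.4 with siRNA2, against 11.9 with control siRNA, and that of GAPDH was 1.29 with siRNA1 and 1.35 with siRNA2, against 1.25 with control siRNA. Of 20 urothelial and epithelial markers listed, 19 were on the array and 6 lay above the floor of 10.5, the median of all values, to which lower values were raised. The uroplakins, EPCAM and CDH1 were below it. The markers above an intensity of 30 did not all go one way. KRT18, a keratin of simple epithelia, had 711 with siRNA1 and 1022 with siRNA2, against 1315 with control siRNA. GATA3, a urothelial transcription factor, had 20.2 with siRNA1 and 35.2 with siRNA2, against 20.2 with control siRNA. Of 7 mesenchymal markers, 5 were above the floor. Their log2 ratios with siRNA1 and siRNA2 were -0.27 and -0.13 for VIM, -0.08 and -0.43 for ZEB1, -0.41 and 0.20 for CDH2, 0.16 and 0.70 for FN1, and 0.28 and 0.78 for SNAI2. Above the floor lay 2 of 5 leukocyte, 2 of 4 endothelial and 2 of 4 erythroid or hepatic markers. The summed intensity of the endothelial markers was 37.9 with siRNA1 and 49.2 with siRNA2, against 64.7 with control siRNA, with TIE1 at 10.1 with siRNA1 and 19.5 with siRNA2, against 30.9 with control siRNA. The leukocyte markers summed to 49.3 with siRNA1 and 44.8 with siRNA2, against 50.3 with control siRNA, and the erythroid and hepatic ones to 48.4 with siRNA1 and 49.4 with siRNA2, against 55.3 with control siRNA.

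Of the 147 RNAs, 1 was at least 2-fold lower with both siRNAs than with control siRNA. MIR100HG, the host transcript of miR-100, let-7a-2 and miR-125b-1, had an intensity of 114 with siRNA1 and 125 with siRNA2, against 362 with control siRNA. Both siRNA arrays were low and close to each other, with log2 ratios of -1.66 with siRNA1 and -1.53 with siRNA2 to the control. In a bulk culture, fewer cells that make an RNA and less of it per cell cannot be told apart. The mature microRNAs inside MIR100HG are shown because the gene is best known for them, with the seed (bases 2 to 8) in capitals. RefSeq (GRCh38.p14) places 4 hairpins with 7 mature sequences inside it, on chromosome 11 and on the minus strand like the host, and no seed is shared among the 7. The 3 below come from chr11:122152275-122152296, chr11:122146568-122146589 and chr11:122099809-122099830.
hsa-miR-100-5p: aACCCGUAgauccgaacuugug
hsa-let-7a-5p: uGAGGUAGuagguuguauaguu
hsa-miR-125b-5p: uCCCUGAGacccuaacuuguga

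The array measured the host transcript and not these mature microRNAs. The next genes outside the host, SORL1 and UBASH3B, had smaller differences than MIR100HG. SORL1, a sorting receptor, had 120 with siRNA1 and 128 with siRNA2, against 175 with control siRNA (log2 ratios of -0.55 with siRNA1 and -0.45 with siRNA2). UBASH3B, a tyrosine phosphatase, had 150 with siRNA1 and 147 with siRNA2, against 187 with control siRNA (log2 ratios of -0.31 with siRNA1 and -0.35 with siRNA2). The other host gene, MIR1915HG, was at 51.2 in all 3 arrays on its brightest probe set. Its second probe set had 10.5 with siRNA1 and 26.4 with siRNA2, against 11.8 with control siRNA, so these 2 probe sets of the gene did not give the same picture with siRNA2.

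Of the 147 RNAs, 4 were at least 2-fold higher with both siRNAs: LINC01234, LINC01003, ADGRB3-DT and LINC01139. Over all 9143 genes above the same intensity threshold, 0.93% were 2-fold higher and 0.361% were 2-fold lower with both siRNAs. Both comparisons use the same control array. All 4 RNAs exceeded 30 in the siRNA arrays and not in the control array, so they entered the set through the arrays in which they were high.

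LINC01234, which has been described in gastric and other carcinomas, had an intensity of 73.5 with siRNA1 and 67.2 with siRNA2, against 22.0 with control siRNA. LINC01003 had 56.7 with siRNA1 and 83.5 with siRNA2, against 21.0 with control siRNA. ADGRB3-DT, divergent from the adhesion receptor gene ADGRB3, had 48.7 with siRNA1 and 53.2 with siRNA2, against 17.8 with control siRNA. In each of these 3 RNAs both siRNA arrays lay more than 2-fold above the control array. The log2 ratios with siRNA1 and siRNA2 were 1.74 and 1.61 for LINC01234, 1.43 and 1.99 for LINC01003, and 1.45 and 1.58 for ADGRB3-DT. LINC01139 had 30.5 with siRNA1 and 35.2 with siRNA2, against 15.1 with control siRNA, and log2 ratios of 1.01 with siRNA1 and 1.22 with siRNA2. Genes beside LINC01234 and LINC01003 did not share these sizes: RBM19 was at 61.5 and LHX5 at 16.9 in all 3 arrays, and KMT2C, a histone methyltransferase, had 82.5 with siRNA1 and 81.0 with siRNA2, against 74.8 with control siRNA. Values equal in all 3 arrays were deposited for 32.1% of all probe sets, under a normalization that is not stated, so such equality is not a measured absence of difference.

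**Figure D1:**
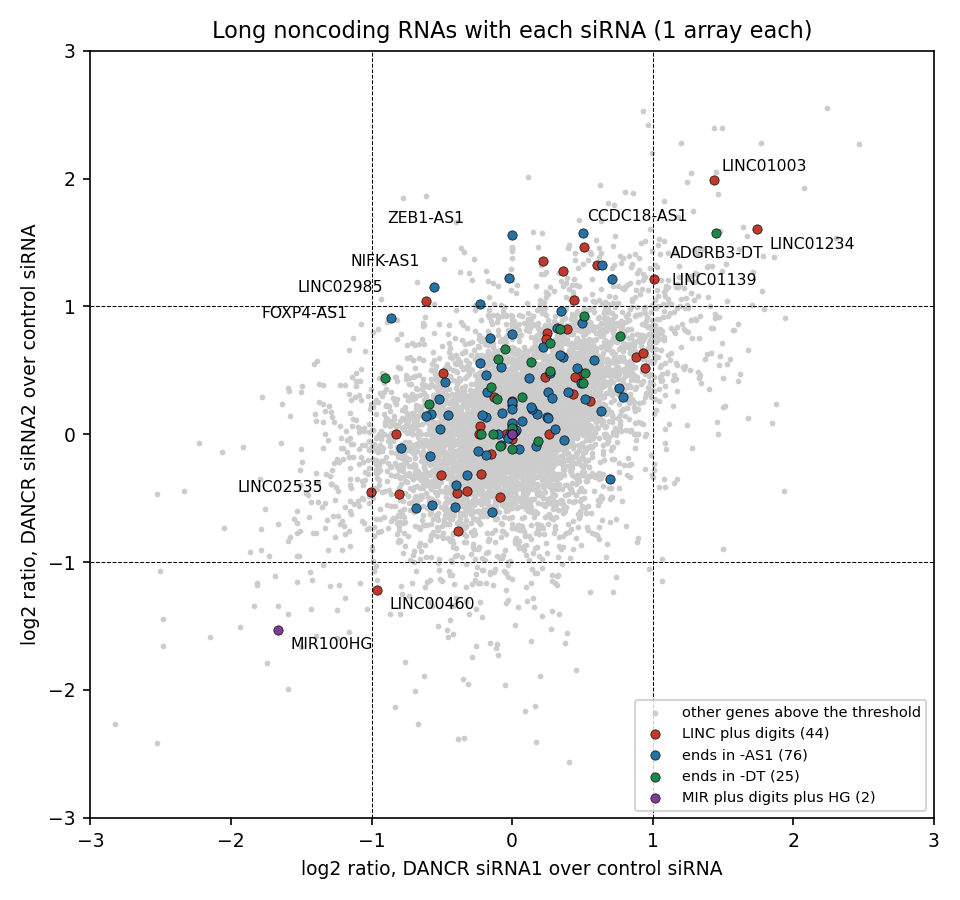
Log2 ratio to the control siRNA array with DANCR siRNA1 (x axis) and with DANCR siRNA2 (y axis) for the 147 RNAs, coloured by name class, over the other genes above the threshold in grey; dashed lines mark 2-fold. LINC01234, LINC01003, ADGRB3-DT and LINC01139 lie in the upper right and MIR100HG in the lower left, and both axes share the control array.

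Promoters of RNAs that stood apart with both siRNAs, and of LINC00460, are shown because the data group these RNAs. Of the 5 that passed 2-fold with both siRNAs, 4 had a promoter in the RefSeq table (GRCh38.p14, 250 bases before to 50 after the start). A set of 6 motifs was searched on both strands, and matches are in capitals: the TATA box as TATAAA, the AP-1 site as TGACTCA, the CRE as TGACGTCA, the E-box as CACGTG, the CCAAT box as GCCAAT and the GC box as GGGCGG. No matches overlapped in the promoters shown. LINC01003 lies at chr7:152463874-152464173, plus strand. LINC01234 lies at chr12:113773634-113773933, minus strand. MIR100HG lies at chr11:122422822-122423121, minus strand, the outermost of 6 annotated starts. LINC00460 lies at chr13:106376314-106376613, plus strand.
LINC01003 promoter: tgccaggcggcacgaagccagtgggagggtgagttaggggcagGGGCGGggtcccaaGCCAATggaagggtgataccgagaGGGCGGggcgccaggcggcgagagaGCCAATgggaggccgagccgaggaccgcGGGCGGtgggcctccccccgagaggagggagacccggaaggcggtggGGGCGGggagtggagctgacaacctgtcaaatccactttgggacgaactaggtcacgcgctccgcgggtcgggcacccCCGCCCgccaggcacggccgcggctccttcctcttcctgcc
LINC01234 promoter: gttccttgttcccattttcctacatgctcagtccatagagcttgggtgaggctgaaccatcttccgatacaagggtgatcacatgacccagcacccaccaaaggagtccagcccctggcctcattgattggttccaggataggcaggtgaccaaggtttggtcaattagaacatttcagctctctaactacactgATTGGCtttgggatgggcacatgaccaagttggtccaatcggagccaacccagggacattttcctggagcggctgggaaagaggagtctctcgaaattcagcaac
MIR100HG promoter: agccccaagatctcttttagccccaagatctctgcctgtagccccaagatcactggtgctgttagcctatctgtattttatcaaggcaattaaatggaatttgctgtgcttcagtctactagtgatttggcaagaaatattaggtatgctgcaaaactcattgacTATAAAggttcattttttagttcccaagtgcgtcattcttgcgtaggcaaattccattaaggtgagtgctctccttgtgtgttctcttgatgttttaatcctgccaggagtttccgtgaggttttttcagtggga
LINC00460 promoter: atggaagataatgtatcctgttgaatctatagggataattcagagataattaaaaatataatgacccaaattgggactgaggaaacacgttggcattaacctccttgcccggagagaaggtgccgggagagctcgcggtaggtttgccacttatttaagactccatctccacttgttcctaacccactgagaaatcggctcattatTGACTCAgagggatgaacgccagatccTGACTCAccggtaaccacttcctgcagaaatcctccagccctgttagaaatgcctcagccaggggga

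LINC01003 held 5 GC boxes and 2 CCAAT boxes, and LINC01234 held 1 CCAAT box. MIR100HG held 1 TATAAA, LINC00460 held 2 AP-1 sites, and ADGRB3-DT held none of the 6 motifs. Over all 27305 promoters of the table, 44.5% held a GC box, 15.4% a CCAAT box, 12.0% TATAAA, 4.90% an AP-1 site, 7.41% an E-box and 1.97% a CRE. Over the 118 of the 147 RNAs with a promoter, these shares were 61.0%, 22.9%, 5.93%, 5.08%, 5.08% and 1.69%. Over the 7545 other genes above the intensity threshold with a promoter, they were 72.5%, 20.6%, 5.02%, 2.60%, 11.0% and 3.51%. The GC box share of the 118 thus lay above that of all promoters and below that of these other genes. A match describes the letters of this window and is not evidence of binding.

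The 118 promoters had a median GC content of 63.3%, against 65.7% for the other genes above the intensity threshold and 58.3% for all promoters. Their ratio of observed to predicted CpG had a median of 0.804, against 0.862 for the other genes above the threshold. The classes differed in this: the median CpG ratio was 0.874 in -DT promoters, 0.816 in -AS1 promoters and 0.505 in LINC promoters. The GC contents of the same classes were 69%, 64.8% and 59.3%.

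With DANCR siRNA1, 4 of the 147 RNAs (2.72%) were at least 2-fold higher than with control siRNA, against 2.41% of all 9143 genes. These were the same 4 RNAs named above. Another 2 were at least 2-fold lower (1.36%, against 2.23% of all genes): MIR100HG and LINC02535. LINC02535 had an intensity of 16.2 with siRNA1 and 23.9 with siRNA2, against 32.5 with control siRNA, and was 2.01-fold lower with siRNA1, only just past the threshold. Its neighbour NT5E, the CD73 ectonucleotidase, had 556 with siRNA1 and 426 with siRNA2, against 754 with control siRNA. The median log2 ratio of the 147 RNAs with siRNA1 was 0.00, as it was for all genes.

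RNAs short of 2-fold with siRNA1 included both intergenic and antisense genes. LINC00339 had 96.3 with siRNA1 and 71.5 with siRNA2, against 49.9 with control siRNA, which is 1.93-fold and 1.43-fold higher. KRT10-AS1, antisense to the keratin gene KRT10, had 159 with siRNA1 and 113 with siRNA2, against 92.0 with control siRNA. Both of these RNAs were highest with siRNA1 and lowest with control siRNA. HOXB-AS1, from the HOXB cluster of developmental regulators, had 27.3 with siRNA1 and 29.5 with siRNA2, against 43.9 with control siRNA. OIP5-AS1, the conserved RNA also called Cyrano and named here after its values were seen, had 111 with siRNA1 and 178 with siRNA2, against 192 with control siRNA. Its second probe set gave log2 ratios of -0.91 with siRNA1 and 0.53 with siRNA2, so these 2 probe sets shared only the direction with siRNA1.

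With DANCR siRNA2, 17 of the 147 RNAs (11.6%) were at least 2-fold higher than with control siRNA, against 2.65% of all 9143 genes. By name class, these were 9 of 44 LINC genes, 7 of 76 -AS1 genes and 1 of 25 -DT genes. The median log2 ratio of the 147 was 0.23, against 0.03 for all genes, and 97 of 147 lay above 0 (66.0%, against 53.5% of all genes). The siRNA2 array also had the highest ACTB 3'/5' ratio of the 3, at 14.4, and its part in this result was not tested. Centring each array on the median of its measured genes lowers the siRNA2 log2 ratios to the control by 0.12, in all genes alike. It left the median of the 147 at 0.106 and 14 of the 147 RNAs at least 2-fold higher. The share of the 8996 other genes above the threshold that were 2-fold higher with siRNA2 fell from 2.5% to 1.81%.

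The choice of RNAs by intensity bears on this count, because 16 of the 147 exceeded 30 with siRNA2 alone, 5 with siRNA1 alone and 7 with control siRNA alone. Among the 94 RNAs above 30 in all 3 arrays, 5 were at least 2-fold higher with siRNA2 (5.32%), against 1.91% of the 8289 other genes that met the same condition. The median of those 94 RNAs was 0.10, against 0.03 for these other genes. The 147 were also dim, with a median intensity of 45.3, against 125 for all genes. At a mean over the 3 arrays under 50, 10 of 83 RNAs (12.0%) were 2-fold higher with siRNA2, against 3.28% of 1678 other genes. At a mean of 50 to 100, 7 of 43 RNAs (16.3%) were, against 3.26% of 2114 other genes. Above 100, 0 of 21 were, against 1.94% of 5204. These shares describe 3 arrays and carry no test.

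**Figure D2:**
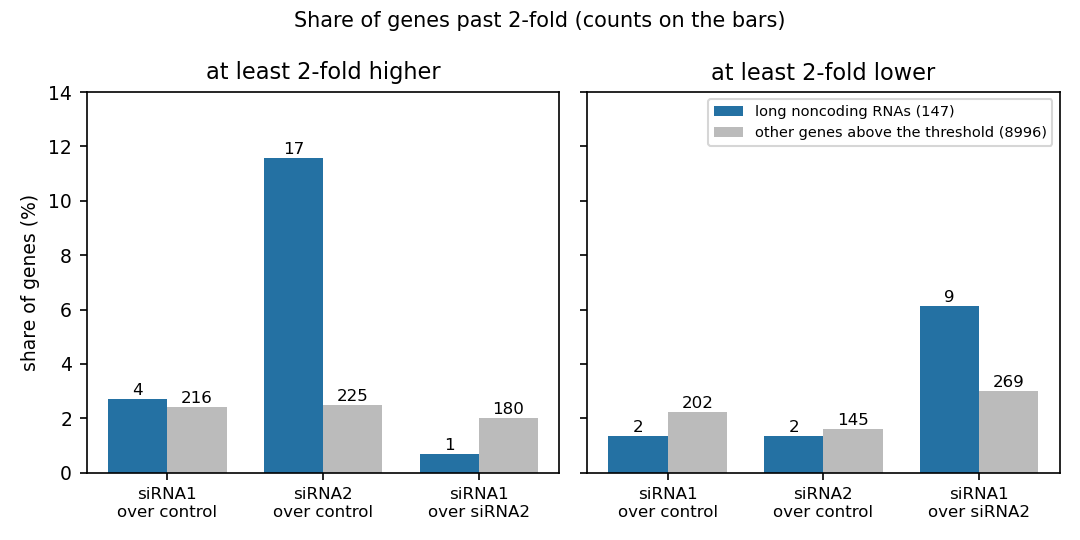
Percent of genes at least 2-fold higher or lower in each comparison, for the 147 long noncoding RNAs and for the 8996 other genes above the same intensity threshold. The pair of bars furthest apart is that for higher with DANCR siRNA2, at 11.6% and 2.50%.

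The RNAs higher with siRNA2 included 4 that were also higher with siRNA1, and 13 that were not 2-fold higher with siRNA1. CCDC18-AS1 had an intensity of 43.9 with siRNA1 and 91.9 with siRNA2, against 30.9 with control siRNA. Its second, dimmer probe set had 15.9 with siRNA1 and 13.7 with siRNA2, against 15.9 with control siRNA, so the difference was seen on 1 of 2 probe sets. ZEB1-AS1, which starts beside the promoter of the mesenchymal transcription factor gene ZEB1, had 31.0 with siRNA2 and lay below the floor with siRNA1 (9.84) and with control siRNA (8.21). Its siRNA2 intensity was therefore at least 2.94-fold above the control. LINC00205 had 26.3 with siRNA1 and 57.7 with siRNA2, against 22.5 with control siRNA, and its second probe set had log2 ratios of -0.17 with siRNA1 and 1.03 with siRNA2. For LINC00205 the 2 brightest probe sets were thus 2-fold higher with siRNA2. Its neighbour POFUT2, a protein O-fucosyltransferase gene, had 105 with siRNA1 and 53.2 with siRNA2, against 36.3 with control siRNA, and so was highest in the other siRNA array.

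LINC03011 had 17.9 with siRNA1 and 34.6 with siRNA2, against 12.5 with control siRNA, and CKMT2-AS1 had 21.6 with siRNA1 and 30.5 with siRNA2, against 13.2 with control siRNA. NUTM2B-AS1 had 31.5 with siRNA1 and 50.5 with siRNA2, against 20.2 with control siRNA. In these 3 RNAs the siRNA1 array lay between the siRNA2 and control arrays. The second probe set of NUTM2B-AS1 did not show this, with 15.6 with siRNA1 and 17.9 with siRNA2, against 17.9 with control siRNA. LINC00317 had 58.7 with siRNA1 and 96.2 with siRNA2, against 38.5 with control siRNA, and LINC00938 had 46.2 with siRNA1 and 86.9 with siRNA2, against 35.9 with control siRNA. The second probe set of LINC00938, with 13.7 with siRNA2 against 11.5 with control siRNA, was near the floor and short of 2-fold. ASH1L-AS1 had 41.9 with siRNA1 and 99.0 with siRNA2, against 42.4 with control siRNA. LINC00317, LINC00938, ASH1L-AS1, LINC00205, NUTM2B-AS1, LINC03011, SPEN-AS1 and LINC00847 were named after their values were seen, to account for all 17. ASH1L-AS1 differed from LINC00317 and LINC00938 in that its siRNA1 and control values were alike. LINC00847 had 21.5 with siRNA1 and 32.8 with siRNA2, against 15.9 with control siRNA.

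Of the 147 RNAs, 2 (1.36%, against 1.61% of all genes) were at least 2-fold lower with siRNA2: MIR100HG and LINC00460. LINC00460, which has been described as raised in several carcinomas, had 171 with siRNA1 and 143 with siRNA2, against 334 with control siRNA. Both siRNA arrays were low, with log2 ratios of -0.96 with siRNA1 and -1.22 with siRNA2, the first just short of 2-fold. Its second probe set had 27.1 with siRNA1 and 70.8 with siRNA2, against 42.9 with control siRNA, so this probe set was lower with siRNA1 and higher with siRNA2. The neighbour EFNB2, an ephrin ligand, had 377 with siRNA1 and 791 with siRNA2, against 452 with control siRNA, a pattern unlike that of the brighter LINC00460 probe set.

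**Figure D3:**
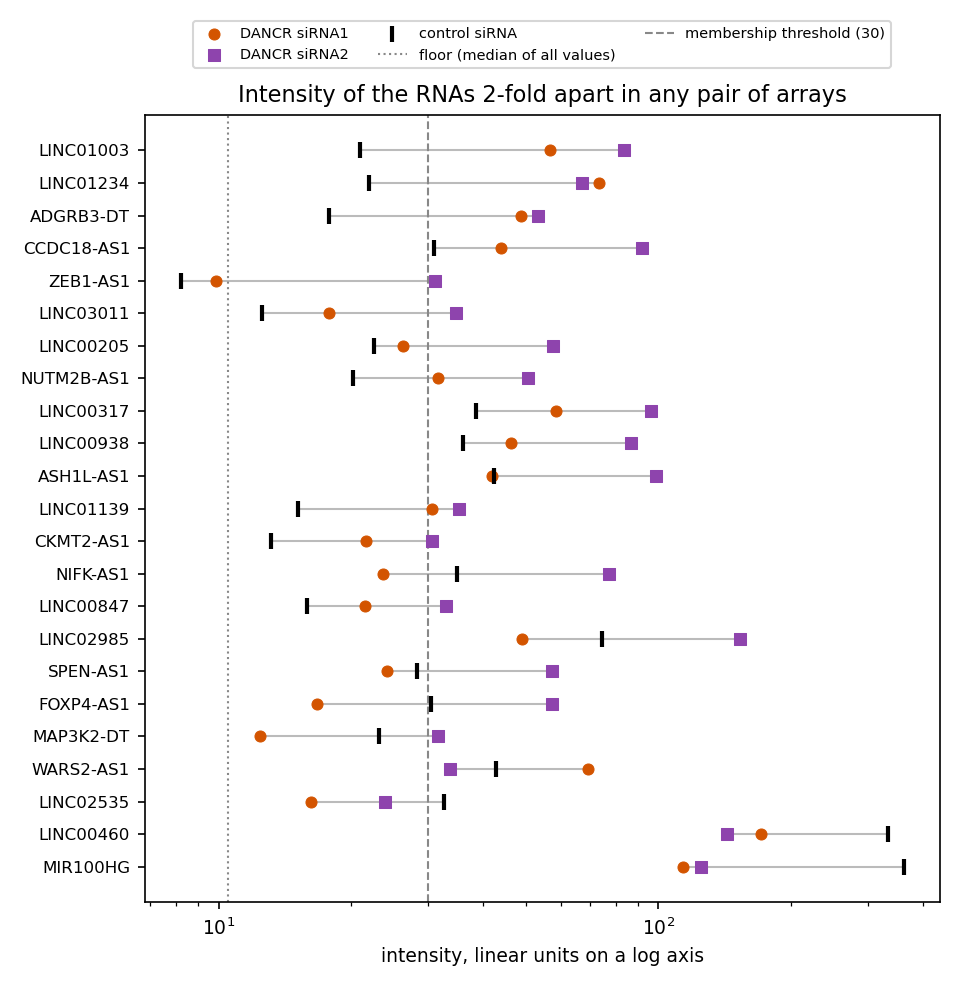
Intensity (linear units on a log axis) of the RNAs that were 2-fold apart in any pair of arrays, with DANCR siRNA1 as circles, DANCR siRNA2 as squares and control siRNA as bars. MIR100HG and LINC00460 have their control value at the right, ZEB1-AS1 is below the dotted floor with siRNA1 and control siRNA, and most other rows have the siRNA2 square at the right.

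Set against each other, the siRNA arrays differed by 2-fold in 10 of the 147 RNAs. Of these, 1 was higher with siRNA1 (0.68%, against 1.98% of all genes), and 9 were lower (6.12%, against 3.04%). WARS2-AS1, divergent from the mitochondrial tryptophanyl-tRNA synthetase gene, was the one higher, with 69.3 for siRNA1 and 33.5 for siRNA2. Its control value of 42.7 lay between them. The median log2 ratio of siRNA1 to siRNA2 over the 147 was -0.12, against 0.00 for all genes. The choice of RNAs by intensity bears on these values too. Of the 9 lower RNAs, ZEB1-AS1, MAP3K2-DT, SPEN-AS1 and LINC00205 exceeded the intensity threshold with siRNA2 alone. Among the 94 RNAs above it in all 3 arrays, 3 were lower with siRNA1 (3.19%), against 2.42% of the 8289 other such genes. Another 1 was higher (1.06%, against 1.69%). The median of those 94 RNAs was -0.05, against 0.00 for these other genes.

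The 9 lower with siRNA1 than with siRNA2 were FOXP4-AS1, NIFK-AS1, LINC02985, ZEB1-AS1, MAP3K2-DT, SPEN-AS1, ASH1L-AS1, LINC00205 and CCDC18-AS1. FOXP4-AS1, which starts beside the forkhead factor gene FOXP4, had 16.7 with siRNA1 and 57.2 with siRNA2, and its control value was 30.4. NIFK-AS1 had 23.7 with siRNA1 and 77.4 with siRNA2, with 34.9 for control siRNA. LINC02985 had 48.9 with siRNA1 and 154 with siRNA2, with 74.6 for control siRNA. In all 3 the control array lay between the siRNA arrays. MAP3K2-DT had 12.4 with siRNA1 and 31.5 with siRNA2, with 23.2 for control siRNA, and SPEN-AS1 had 24.1 with siRNA1 and 57.2 with siRNA2, with 28.3 for control siRNA. MLXIP, a neighbour of LINC02985, had 70.2 with siRNA1 and 157 with siRNA2, with 93.2 for control siRNA, and the other neighbour BCL7A had 89.2 with siRNA1 and 109 with siRNA2, with 61.5 for control siRNA.

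Among the 107 RNAs with 3 different values, the highest was the siRNA2 array in 64, the siRNA1 array in 24 and the control array in 19. Over all genes with 3 different values, siRNA2 was the highest in 40.4%, against 59.8% of these RNAs. The siRNA1 array was the highest in 34.3% of such genes, against 22.4% of the RNAs, and the control array in 25.3%, against 17.8%. The lowest value was the control array in 55 RNAs (51.4%, against 40.4% of all such genes). It was siRNA1 in 38 (35.5%, against 33.3%) and siRNA2 in 14 (13.1%, against 26.2%). In 10 of the 147 RNAs (6.8%) the deposited value was equal in all 3 arrays, against 5.42% of all genes above the threshold.

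The 4 brightest -AS1 RNAs and the 4 brightest LINC RNAs included several with nearly equal arrays. ZNF232-AS1 had 588 with siRNA1 and 591 with siRNA2, against 577 with control siRNA. EPB41L4A-AS1, a host of a small nucleolar RNA, had 609 with siRNA1 and 456 with siRNA2, against 470 with control siRNA. LINC00621 had 432 with siRNA1 and 439 with siRNA2, against 439 with control siRNA, on a probe set marked by the maker as open to cross-hybridisation. These 3 RNAs stayed within 1.5-fold of the control with both siRNAs. So did WAC-AS1, LINC01029, LINC00623 and, only just, TMEM132D-AS1, each on its brightest probe set. WAC-AS1 had 344 with siRNA1 and 362 with siRNA2, against 344 with control siRNA. TMEM132D-AS1 had 566 in both siRNA arrays, against 378 with control siRNA, and its second probe set had log2 ratios of 1.27 with siRNA1 and 0.93 with siRNA2. LINC01029 had 473 with siRNA1 and 469 with siRNA2, against 336 with control siRNA, a log2 ratio of 0.49 with siRNA1 and 0.48 with siRNA2. LINC00623 had 83.2 with siRNA1 and 163 with siRNA2, against 117 with control siRNA, on a probe set open to cross-hybridisation.

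Of the 4 brightest -DT RNAs, 3 were higher with siRNA2 than with siRNA1. RAB30-DT had 310 with siRNA1 and 418 with siRNA2, against 283 with control siRNA. CRIM1-DT had 145 with siRNA1 and 238 with siRNA2, against 150 with control siRNA. Both probe sets of CRIM1-DT gave the same direction, with log2 ratios of -0.05 with siRNA1 and 0.67 with siRNA2 on the brighter and -0.11 with siRNA1 and 0.73 with siRNA2 on the dimmer. RNASEH1-DT had 95.2 with siRNA1 and 112 with siRNA2, against 79.1 with control siRNA. STX17-DT had 135 with siRNA1 and 125 with siRNA2, against 135 with control siRNA, and was thus lower with siRNA2.

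The symbols of the 101 -AS1 and -DT RNAs name a partner gene, and the partner was on the array for 96 and above the floor for 88. RefSeq starts of both were at hand for 77 pairs. In 46 of these the starts were within 1000 bases on opposite strands, with a median distance of 189.5 bases, and these comprised 18 -DT and 28 -AS1 RNAs. A further 30 -AS1 RNAs pointed towards their partner from a more distant start, and 1 -DT RNA was further apart, pointing away. In no pair were RNA and partner both 2-fold apart in any of the 3 comparisons. Of the 88 partners, only 2 were 2-fold apart with siRNA1, 1 with siRNA2 and 2 for siRNA1 against siRNA2. With so few, the absence of such a pair does not show whether RNAs and partners go together.

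Values of partner genes are set beside those of their RNAs. ZEB1, a repressor of epithelial genes, had 358 with siRNA1 and 281 with siRNA2, against 379 with control siRNA, while ZEB1-AS1 was higher with siRNA2. ADGRB3 was below or near the floor in all 3 arrays, where the probe set can show no difference, at 5.94 with siRNA1 and 10.6 with siRNA2, against 4.41 with control siRNA. CCDC18 had 54.2 with siRNA1 and 41.1 with siRNA2, against 45.2 with control siRNA. ZEB1 and CCDC18 were short of 2-fold in the siRNA2 comparison in which their RNAs passed it. NIFK, a nucleolar protein gene, had 608 with siRNA1 and 594 with siRNA2, against 619 with control siRNA, while its antisense RNA differed 3.26-fold between the siRNA arrays. FOXP4 had the same value of 29.2 in both siRNA arrays, against 21.2 with control siRNA. MAP3K2 had 266 with siRNA1 and 310 with siRNA2, against 167 with control siRNA, higher with siRNA1 where MAP3K2-DT was lower. With siRNA2 both were higher, with log2 ratios of 0.89 for MAP3K2 and 0.44 for MAP3K2-DT.

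Among the 88 partner genes, 2 were at least 2-fold lower with siRNA1 and 1 with siRNA2. Of all 9143 genes above the intensity threshold, 2.23% were lower with siRNA1 and 1.61% with siRNA2, so the partners did not stand out. The 3 partners were named after their values were seen. EIF3J, a subunit of translation initiation factor eIF3, had 231 with siRNA1 and 307 with siRNA2, against 574 with control siRNA. EIF3J-DT, whose start lies 222 bases away, had 34.5 with siRNA1 and 48.1 with siRNA2, against 27.2 with control siRNA. TTC28 had 58.2 with siRNA1 and 109 with siRNA2, against 142 with control siRNA, while TTC28-AS1 had log2 ratios of 0.40 with siRNA1 and 0.33 with siRNA2. OIP5, a centromere protein gene, had 687 with siRNA1 and 296 with siRNA2, against 796 with control siRNA, while OIP5-AS1 had a log2 ratio of -0.11 with siRNA2. In the pairs of EIF3J and TTC28 the RNA was higher where the partner was lower.

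Across the 88 pairs, the log2 ratios of RNA and partner had a Spearman correlation of 0.14 with siRNA1, 0.02 with siRNA2 and 0.15 for siRNA1 against siRNA2. Among the 24 -DT pairs these were -0.20, -0.27 and 0.56. Where neither log2 ratio of a pair was 0, RNA and partner had the same sign in 41 of 65 pairs with siRNA1. They had it in 44 of 68 pairs with siRNA2 and in 38 of 65 for siRNA1 against siRNA2. The points are genes read on the same 3 arrays and are not replicates, and the comparisons share arrays, so these are descriptions.

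**Figure D4:**
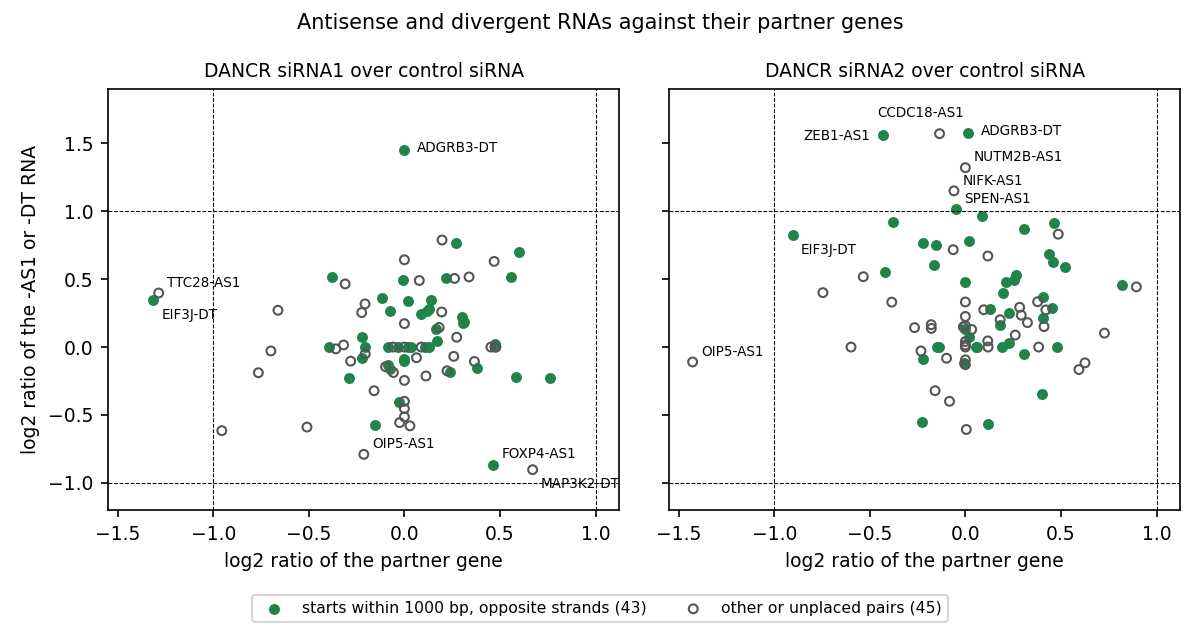
Log2 ratio of each -AS1 or -DT RNA (y axis) against that of its partner gene (x axis) with DANCR siRNA1 (left) and DANCR siRNA2 (right), for the 88 measured pairs; filled points have starts within 1000 bases on opposite strands. No point lies beyond the dashed 2-fold lines on both axes, and only 2 partners passed 2-fold with siRNA1 and 1 with siRNA2.

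A second probe set above the floor existed for 48 of the 147 RNAs. Where the brightest probe set differed by at least 0.58 (log2) with siRNA1, the second had the same sign in 6 of 8 RNAs, the opposite sign in 1 and no difference in 1. With siRNA2 the second had the same sign in 8 of 12, the opposite in 3 and no difference in 1. For siRNA1 against siRNA2 it had the same sign in 5 of 11, the opposite in 1 and no difference in 5. LINC01089 had the same direction on both, with log2 ratios of -0.38 with siRNA1 and -0.76 with siRNA2 on the brighter and -0.40 with siRNA1 and -0.89 with siRNA2 on the dimmer. The chosen probe set carried the maker's suffix for shared or cross-hybridising transcripts in 25 of the 147 RNAs, among them LINC01003, MAP3K2-DT and CRIM1-DT. LINC01234, LINC01003, ADGRB3-DT, LINC01139 and MIR100HG had no second probe set above the floor.

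The intensity threshold had genes close to it on both sides. The 5 nearest inside it were MAPT-AS1, LINC02210, PCBP1-AS1, DMTF1-AS1 and CKMT2-AS1. The nearest outside were INTS6-AS1 with a highest value of 29.8, PRDM16-DT and EMC3-AS1 with 29.2, and MBNL1-AS1 and VPS9D1-AS1 with 28.4 and 28.2. EMC3-AS1 had 14.3 with siRNA1 and 22.9 with siRNA2, against 29.2 with control siRNA, and would have added 1 RNA to those 2-fold lower with siRNA1.

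Long noncoding RNAs, all but 1 with names outside the rule, were listed beside the 147. Of 50 listed, 35 were on the array and 12 exceeded 30. The exception, EPB41L4A-DT, was at 2.42 in all 3 arrays and so too dim for the 147. With siRNA1, 1 of the 12 was 2-fold higher and 1 lower (2.41% and 2.23% of all genes), and with siRNA2, 1 was higher and 2 lower (2.65% and 1.61% of all genes), with DANCR, the siRNA target, among the lower in both. With siRNA1, NRAV, an RNA tied to the antiviral response, was the one of the 12 at least 2-fold higher, with 158 with siRNA1 and 86.2 with siRNA2, against 62.5 with control siRNA. With siRNA2, TUG1, a conserved RNA with nuclear and cytoplasmic roles, was the one higher, with 101 with siRNA1 and 284 with siRNA2, against 123 with control siRNA. DLEU2, a microRNA host gene, was 2-fold lower with siRNA2, with 116 with siRNA1 and 83.4 with siRNA2, against 167 with control siRNA. DANCR was lower with both siRNAs, whereas NRAV passed 2-fold with siRNA1 and TUG1 and DLEU2 with siRNA2. MALAT1 and NORAD were named after their values were seen. MALAT1, the abundant nuclear speckle RNA, had 2496 with siRNA1 and 2968 with siRNA2, against 2376 with control siRNA. NORAD, which binds Pumilio proteins, had 623 with siRNA1 and 366 with siRNA2, against 516 with control siRNA.

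The nuclear exosome degrades many short-lived noncoding RNAs, and genes of its core and adaptors were listed beside them. Of 27 listed, 25 exceeded 30, and their median log2 ratio was 0.00 with siRNA1 and -0.05 with siRNA2. RBM7, the RNA-binding subunit of the exosome-targeting complex, was the one at least 2-fold higher with siRNA1, with 311 with siRNA1 and 208 with siRNA2, against 124 with control siRNA. None of the 25 was 2-fold apart with siRNA2. Of all 9143 genes, 2.41% were higher and 2.23% lower with siRNA1, and 2.65% and 1.61% with siRNA2. The exosome counts are near these shares. EXOSC6, a core subunit, had 117 with siRNA1 and 295 with siRNA2, with a control value of 194. Of 14 genes of microRNA processing, 11 exceeded 30 and 2 of these were 2-fold lower with siRNA1, against 2.23% of all genes. PRKRA, a partner of Dicer, had 54.2 with siRNA1 and 126 with siRNA2, against 117 with control siRNA, and AGO1, an Argonaute protein, had 58.02 with siRNA1 and 125 with siRNA2, against 123 with control siRNA.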

How the data were processed

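Biotin-labelled cRNA made from total RNA was put on Affymetrix arrays, per the labels' protocols. The deposited values are linear intensities, with 1 value for each probe set of an array, and GCOS 1.4 is named in the submitters' processing notes. The normalization method is not given in the sources used here. Of 54675 probe sets, 41091 named a single gene in the platform annotation supplied for the array and were used.

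Values below the median of all values (10.5) were raised to it, the probe set with the highest mean stood for its gene, and log2 ratios were called at 2-fold. No p-value was computed, because no group had a replicate array. The number of arrays limits the precision. The genes and lists were chosen with earlier results of these data known, and none of the counts is independent support for those results.

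Named were the RNAs called with both siRNAs, the 5 highest and 5 lowest in each comparison, the 4 brightest of each name class, every microRNA host, those with opposite directions by at least 0.58 (log2), those nearest the intensity threshold, partner genes and called list genes. Genes next to a named RNA on the chromosome and markers are given as context, outside this rule and after their values were seen, and other additions are marked where they occur. Of the 147 RNAs, 146 were matched by Entrez ID to the RefSeq table, and promoters and microRNAs come from RefSeq tables of GRCh38.p14. Whether a probe set reads the antisense or the sense strand was not checked. Which transcript the siRNA positions in the labels refer to was not settled.

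Alternatives were floors at the 30th and 70th percentile, other fold and membership thresholds, the median over probe sets, leaving out shared or cross-hybridising probe sets, median-centring and quantile normalization. The procedure was tested on simulated data. Python 3.11.15, numpy 2.4.6, pandas 2.3.3 and matplotlib 3.10.9 were used.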

Additional observations from a re-analysis of the deposited data

Results flagged for a closer look

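Among the 147 RNAs, 2 were higher with one DANCR siRNA and lower with the other, relative to control siRNA, by at least 0.58 on the log2 scale each way. FOXP4-AS1 had log2 ratios of -0.86 with siRNA1 and 0.91 with siRNA2, a difference of -1.78 for siRNA1 minus siRNA2. LINC02985 had log2 ratios of -0.61 and 1.04, a difference of -1.65. With 1 array for each siRNA, neither difference was tested, and each gene had 1 probe set in use.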

How the results depend on the processing

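No paired analysis was possible because each group had 1 array. The main counts were 4 higher with both siRNAs, 4 and 17 higher with siRNA1 and siRNA2, 1 lower with both, 2 and 2 lower, and 1 higher and 9 lower for siRNA1 against siRNA2. At 1.5-fold these were 10 higher with both, 15 and 37 higher, 2 lower with both, and 13 and 4 lower. For siRNA1 against siRNA2, 1 was higher and 31 were lower. Of the 8996 other genes above the threshold, 4.41% were 1.5-fold higher with both, and 8.93% and 10.5% with siRNA1 and siRNA2. In those genes 1.63% were lower with both and 7.56% and 5.54% lower, and for siRNA1 against siRNA2 6.66% were higher and 10.4% lower. At 3-fold they were 1 higher with both, 1 and 2 higher, 0 lower with both, 1 and 0 lower, and 0 higher and 3 lower for siRNA1 against siRNA2. With the floor at the 70th percentile, 1 was higher with both, 1 and 8 were higher with siRNA1 and siRNA2, 1 was lower with siRNA1, and 4 were lower for siRNA1 against siRNA2. With an intensity above 50 as the condition, 1 of 79 RNAs was lower with siRNA1, and with a mean above 30, 1 of 121 was. The median over probe sets left 1 lower with siRNA2. Median-centring moved the median siRNA2 log2 ratio to 0.106, and quantile normalization gave 0.153, with 14 and 15 RNAs higher with siRNA2, all among the main 17. Of the values of named RNAs under these alternatives, 1179 kept their side of the 2-fold threshold, 30 fell inside it and 0 reversed. Most of these values were inside 2-fold in the main setting, so the 1179 do not measure how stable the calls were. Of the 30, 18 fell inside it with the floor at the 70th percentile. In the median over probe sets with siRNA2, LINC00460 was at -0.25, CCDC18-AS1 at 0.68, LINC00938 at 0.76 and NUTM2B-AS1 at 0.66. After median-centring, LINC01139 was at 0.99 with siRNA1, and LINC02985, SPEN-AS1 and LINC00847 were at 0.92, 0.90 and 0.93 with siRNA2. With the floor at the 70th percentile, ADGRB3-DT was at 0.71 and 0.84 with siRNA1 and siRNA2, LINC01139 at 0.03 and 0.24 and ZEB1-AS1 at 0.06 with siRNA2, since that floor covers their control values. The counts of RNAs near an intensity of 30 rest on values close to background.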
